A study of Mus musculus with 24 samples.

Results

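Dendritic cells (DCs) grown from mouse bone marrow with GM-CSF were compared before and after 24 h with 1 µM AZD5582, and each gene's net change was read against the change in cultures given the solvent DMSO for the same time. That DMSO change also holds whatever 24 h more of culture brings. The comparison uses 6 of the 24 libraries of the series, chosen by the ending of their titles: 3 collected at the start (t0) and 3 collected after AZD5582. A further 3 libraries, treated with DMSO for 24 h, serve as the reference. The DMSO and AZD5582 treatments were parallel, each for 24 h from t0. The first step named below is the difference between t0 and DMSO, the second that between DMSO and 1 µM. These steps are differences between groups, not stages that a culture passed through. All 9 came from cultures that received 20 ng/ml GM-CSF, a cytokine that drives myeloid cells towards DCs and macrophages, and treatment began at day 8 of culture. The protocols also name day 9 for the use of such cells, and the 2 days cannot be reconciled from the labels. The mice were wild-type C57BL/6JRj or Cas9-EGFP animals, and which of them each library came from is not known from the labels. Titles give the 9 libraries 1 culture number, DC105, so the replicates may not be separate animals, and p-values then measure only the spread between these samples, which may be technical.

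AZD5582 is a SMAC mimetic, a compound that binds inhibitor of apoptosis proteins (IAPs) and leads cells to degrade cIAP1 and cIAP2. Those proteins normally keep the kinase NIK low. With NIK stabilised, the precursor p100 (encoded by Nfkb2) is processed and pairs with RelB, the route called non-canonical NF-kB signalling, which CD40 and other TNF receptors use in DCs. A DC that matures raises Ccr7, co-stimulatory molecules and MHC class I loading, and lowers uptake receptors, while GM-CSF cultures also hold macrophages and granulocytes whose RNA is part of each library.

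Counts assigned to genes ran from 54732784 to 62247676 per library at t0, from 45268073 to 81007086 with DMSO and from 45077624 to 55676002 at 1 µM. In a principal component analysis of the 9 libraries the first component held 70.9% of the variance and put t0 at -111.46 to -109.58, DMSO at -16.4 to 0.35 and 1 µM at 115.97 to 123.21. The second held 14.7% and put t0 at 29.09 to 36.43, DMSO at -61.52 to -59.39 and 1 µM at 19.5 to 32.69. On it DMSO stood apart from both other groups. Replicate 1 of the 1 µM group stood apart in library make-up, with mitochondrial genes taking 8.04% of its counts, where replicates 2 and 3 had 3.96% and 4.27%, and 12.12% of reads of low alignment quality against 8.22% and 8.55%. Without it, 5545 genes rose and 5626 fell from t0, against 5646 and 5485 with it. RNA was pooled over all cells of a culture, so fewer cells of a type and less RNA per cell cannot be told apart.

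The DC label was checked against its markers. Of 12 DC markers tested, 5 rose and 5 fell from t0, and their summed level was 12340 to 13860 CPM (counts relative to all counts of a library, scaled as given in the methods) at t0, 14620 to 17490 CPM with DMSO and 23960 to 28680 CPM at 1 µM. The higher sum was that of Fscn1 and Ccr7, whose means went from 164 to 11500 CPM and from 217 to 6411 CPM. Without these genes, a choice made after the values were seen, the other 10 markers summed to 11980 to 13430 CPM at t0, 10070 to 13010 CPM with DMSO and 7255 to 9395 CPM at 1 µM. In each group most of that sum was Cd74, with means of 8780, 8780 and 6410 CPM at t0, with DMSO and at 1 µM. H2-Ab1 had means of 2640, 2230 and 878 CPM. These 10 held all 5 falls of the list, while Batf3, Flt3 and Zbtb46 among them rose. Flt3, the receptor of a DC growth factor, stood at 3.42, 4.60 and 4.78 CPM at t0, 73.1, 94.1 and 102 CPM with DMSO and 120.1, 187 and 235 CPM at 1 µM, so no library of 1 group overlapped another. Zbtb46, a transcription factor of conventional DCs, rose from a mean of 27.2 to 197 CPM, while Itgax, which encodes CD11c, fell from 1074 to 160.5 CPM. The 25 monocyte and macrophage markers summed to 26780 to 31930 CPM at t0, 36900 to 43490 CPM with DMSO and 8131 to 9018 CPM at 1 µM. Lyz2 alone had a mean of 17380 CPM at t0, and the other 24 summed to 11210 to 12280 CPM at t0, 13980 to 16550 CPM with DMSO and 4080 to 4601 CPM at 1 µM. Xcr1, a defining marker of type 1 conventional DCs, had 26, 2 and 0 counts over the 3 libraries of t0, DMSO and 1 µM. The part of changing cell types in the results below was not tested.

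Promoters of 5 genes are printed first: 3 whose products or partners carry or damp NF-kB signals and whose RNA rose in both steps, Dll4 as a gene among the largest rises, and Ccnb2 for the cell division genes that fell in both steps. Tnip1 lies outside the rule for naming genes and was chosen after its values were seen. Each run is the 250 bases before the first transcription start listed in RefSeq (table build GRCm38.p6, whereas the counts were made on GRCm39), read 5′ to 3′ on the gene's strand. Capitals mark matches to the kB consensus on either strand or, in Ccnb2, to TTTGAA on either strand, the cell cycle genes homology region. Overlapping kB matches are joined in 1 run of capitals.
Nfkb2: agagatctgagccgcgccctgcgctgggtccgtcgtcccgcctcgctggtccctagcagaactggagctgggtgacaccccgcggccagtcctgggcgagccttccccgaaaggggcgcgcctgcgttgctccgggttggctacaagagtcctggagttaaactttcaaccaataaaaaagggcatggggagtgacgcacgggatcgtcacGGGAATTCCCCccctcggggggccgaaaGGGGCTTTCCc
Tnip1: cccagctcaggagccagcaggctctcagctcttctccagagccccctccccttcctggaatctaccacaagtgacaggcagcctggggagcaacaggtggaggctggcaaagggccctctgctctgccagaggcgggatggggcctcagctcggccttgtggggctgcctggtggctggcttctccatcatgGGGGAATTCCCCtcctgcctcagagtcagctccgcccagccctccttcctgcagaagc
Irf1: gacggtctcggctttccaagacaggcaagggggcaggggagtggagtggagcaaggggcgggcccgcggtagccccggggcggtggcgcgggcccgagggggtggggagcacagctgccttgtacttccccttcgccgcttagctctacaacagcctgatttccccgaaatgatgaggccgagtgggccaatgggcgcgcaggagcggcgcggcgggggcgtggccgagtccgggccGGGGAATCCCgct
Dll4: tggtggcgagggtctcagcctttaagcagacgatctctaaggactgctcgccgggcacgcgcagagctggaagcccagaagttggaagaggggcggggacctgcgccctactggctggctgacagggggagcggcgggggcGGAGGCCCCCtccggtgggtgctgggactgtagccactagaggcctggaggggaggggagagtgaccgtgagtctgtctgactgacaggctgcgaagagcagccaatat
Ccnb2: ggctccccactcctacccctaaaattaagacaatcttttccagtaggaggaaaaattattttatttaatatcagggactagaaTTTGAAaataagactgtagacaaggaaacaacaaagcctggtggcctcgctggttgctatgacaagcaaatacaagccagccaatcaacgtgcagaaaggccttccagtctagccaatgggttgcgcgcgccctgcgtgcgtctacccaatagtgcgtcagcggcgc
The Nfkb2 window is chr19:46304487-46304736 on the plus strand and holds 3 matches, the nearest 11 to 2 bases before the start. The Tnip1 window is chr11:54962941-54963190 on the minus strand, also with 3 matches, and that of Irf1 is chr11:53769764-53770013 on the plus strand with 1 match, 13 to 4 bases before the start. Dll4 lies at chr2:119325534-119325783 on the plus strand with 1 match at 109 to 100 bases, and Ccnb2 at chr9:70421555-70421804 on the minus strand with 1 match at 167 to 162 bases. The kB consensus was found in 1894 of all 27025 promoters of the table (7.01%) and in 920 of the 10428 tested protein-coding genes with a promoter there (8.82%). It was in 9 of the 20 promoters of the NF-kB list: those of Cyld, Nfkb2, Nfkbia, Nfkbie, Rel, Tnfaip3, Tnip1, Tnip3 and Traf3. TTTGAA was found in 4398 of all promoters (16.3%) and in 1129 of those of tested genes (10.8%). It was in 9 of the 36 promoters of the cell cycle list (25%). The list of DC maturation and migration, whose genes mostly rose, had a similar share, 6 of 25 promoters (24%). A match is a description of these letters and not a binding site.

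From t0 to 24 h at 1 µM AZD5582, most of the transcriptome moved. Of 16152 genes tested, 5646 rose (35%) and 5485 fell (34%), with 3229 rises and 3352 falls of at least 2-fold and 1016 and 972 of at least 8-fold (edgeR's quasi-likelihood test, Benjamini-Hochberg adjusted p under 0.05). The median gene changed by 0.0325 on the log2 scale and the median size of change was 0.85. Counts of rises and falls in each gene list of this report are to be read beside these shares of 35% and 34%. A list near them is not set apart from all genes by its counts. With DMSO alone, 4398 genes rose (27.2%) and 3280 fell (20.3%) over the same 24 h. Between 1 µM and DMSO, 4350 genes were higher (26.9%) and 4549 lower (28.2%).

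Each gene was then placed by how the 2 steps combined. AZD5582 extended a DMSO change where the difference from DMSO was called in the same direction: 2086 rises (12.9%) and 1461 falls (9.05%). It opposed a DMSO change where that difference was called the other way. The opposed change was partly cancelled where the net change was still called in the DMSO direction (115 rises, 0.712%, and 101 falls, 0.625%), cancelled where no net change was called (358 rises, 2.22%, and 312 falls, 1.93%), and reversed where the net change was called the other way (412 rises, 2.55%, and 113 falls, 0.7%). A DMSO change was kept where the difference from DMSO was not called (1427 rises, 8.83%, and 1293 falls, 8.01%), which does not show equal levels. Genes called against DMSO with no called DMSO change are given as changed with AZD5582 only (1738 up, 10.8%, and 2203 down, 13.6%). For these genes no difference between DMSO and t0 was called, which does not show that there was none. The DMSO libraries enter both steps with opposite sign, so these counts have no test of their own. Of all DMSO rises 47.4% were extended, 20.1% opposed and 32.4% kept, and of all DMSO falls 44.5%, 16% and 39.4%. Of the genes counted as cancelled, the 95% interval of the net change lay within 2-fold of t0 for 285 of 358 rises and 275 of 312 falls.

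**Figure D1:**
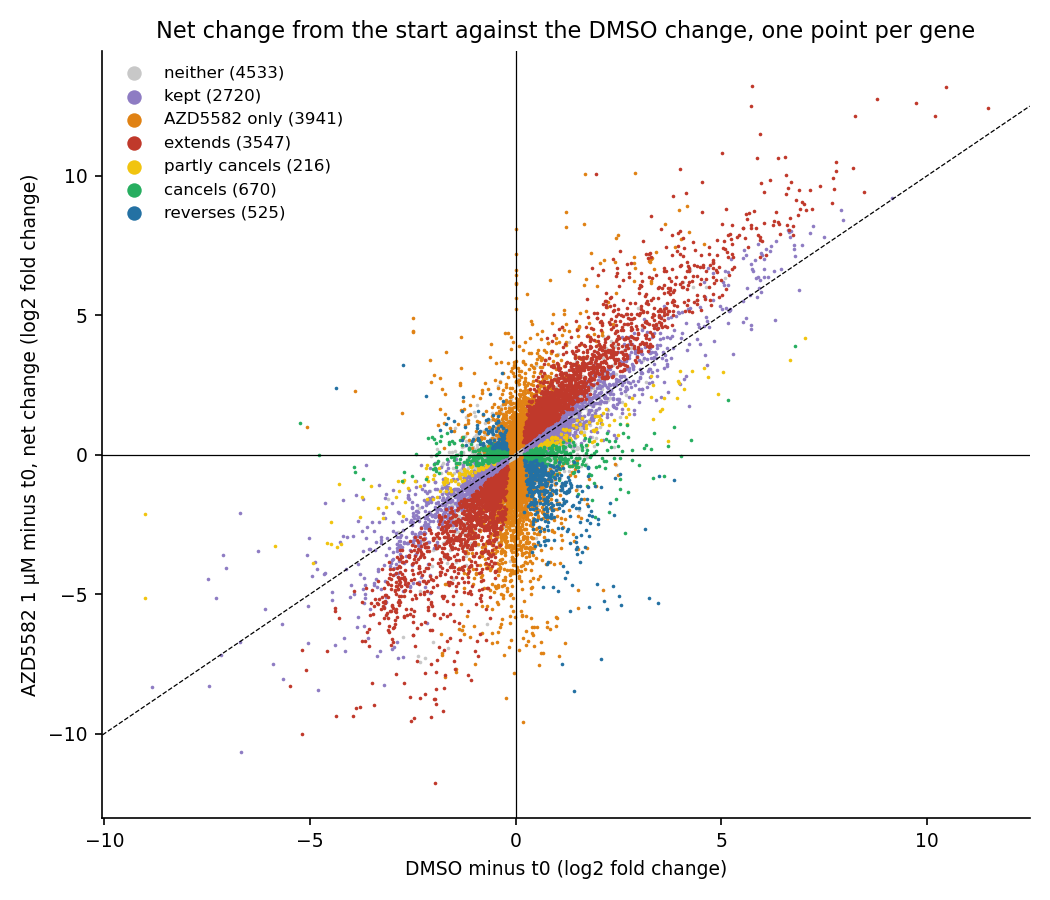
Each point is 1 of 16152 genes; the horizontal axis is the log2 change from t0 to DMSO, the vertical axis the net log2 change from t0 to 1 µM AZD5582, the dashed line marks equal changes, and colours give the class with its number of genes. The 3547 genes whose DMSO change was extended lie beyond the dashed line in the direction of that change, most of the 670 cancelled genes lie near the horizontal axis, and the 525 reversed genes lie at the upper left and lower right.

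The genes of the pathway that the compound acts on were mostly higher after 24 h, and many of them were already higher with DMSO. Of 24 tested genes for NF-kB subunits, inhibitors and signalling, 21 rose from t0 and 1 fell, with a median log2 change of 1.97, and for 17 AZD5582 extended a DMSO rise. Over all genes 35% rose from t0 and 12.9% were extended rises. Nfkb2, the precursor of p52, stood at 64.8, 79.0 and 68.3 CPM at t0, 333, 396 and 326 CPM with DMSO and 1051, 871 and 881 CPM at 1 µM, a net log2 change of 3.72 ± 0.11 (adjusted p = 2.78e-14). Relb, its partner, stood at 42.6, 44.5 and 38.5 CPM at t0, 321, 388 and 330.2 CPM with DMSO and 581, 495 and 576 CPM at 1 µM, a net change of 3.72 ± 0.12 of which 3.05 lay between t0 and DMSO and 0.67 between DMSO and AZD5582. In both genes the 3 groups did not overlap.

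Traf1, a signalling adaptor that NF-kB itself induces, rose by 4.27 ± 0.12 on the log2 scale, and Nfkbib, an inhibitor that holds NF-kB in the cytoplasm, by 3.00 ± 0.10. Tnip1, an inhibitor that works with A20, rose by 1.72 ± 0.12 in 2 steps of 0.91 and 0.81. Map3k14, which encodes NIK, rose by 1.81 ± 0.10. It had 131, 150.2 and 152 CPM with DMSO and 129, 164 and 148 CPM at 1 µM, overlapping ranges, and the DMSO rise is counted as kept. The exception among the 24 was Tnip3, an inhibitor of NF-kB signalling, at a mean of 75.7 CPM at t0, 117 CPM with DMSO and 42.8 CPM at 1 µM, a reversed rise.

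Among the 12 tested genes for IAPs and their antagonists, 3 rose and 5 fell, where 35% of all genes rose and 34% fell. Birc2, which encodes cIAP1, had 30.02, 28.5 and 29.2 CPM at t0, 116, 143 and 152 CPM with DMSO and 166, 222 and 237 CPM at 1 µM, a net rise of 2.83 ± 0.12 (adjusted p = 1.7e-12) that extended the DMSO rise. Birc3, which encodes cIAP2, had 65.1, 59.1 and 59.4 CPM at t0, 251, 262 and 252 CPM with DMSO and 253, 302 and 302 CPM at 1 µM. Its ranges with DMSO and at 1 µM overlapped, its net rise was 2.22 ± 0.09, and its DMSO rise is counted as kept with all libraries and as extended without replicate 1 of the 1 µM group. Xiap, the caspase inhibitor, was not called: its net log2 change was 0.07 ± 0.14 with a 95% interval of -0.22 to 0.36 (adjusted p = 0.681). Htra2, which encodes a protease of mitochondria and an IAP antagonist, rose by 2.31 ± 0.08. Birc5 (survivin), an IAP of cell division, fell from a mean of 68.6 to 1.84 CPM, and Naip5 and Naip6, sensors of bacterial flagellin with near-identical copies, fell by 1.72 ± 0.11 and 1.94 ± 0.15 on the log2 scale with AZD5582 only.

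The genes of DC maturation and migration mostly rose, with the highest median of the 30 pathway lists. Of 40 tested, 37 rose from t0 and none fell, against 35% and 34% of all genes, and the median net log2 change was 3.65 (2.16 with DMSO). For 30 of the 40, AZD5582 extended a DMSO rise, against 12.9% of all genes. Fscn1, which encodes fascin, the actin bundler of mature DC dendrites, had 155, 178 and 158 CPM at t0, 2139, 2833 and 2786 CPM with DMSO and 11750, 11010 and 11740 CPM at 1 µM, a net log2 change of 6.13 ± 0.12 (adjusted p = 1.48e-15). Ccr7, the receptor that guides DCs to lymph nodes, had 204, 255 and 192 CPM at t0, 1386, 1648 and 1764 CPM with DMSO and 7533, 5655 and 6043 CPM at 1 µM, a net change of 4.88 ± 0.13. Every 1 µM library lay above every DMSO library, and every DMSO library above every t0 library, for both genes.

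Cd40, a receptor for T cell help that signals through non-canonical NF-kB, had 8.56, 9.76 and 7.86 CPM at t0, 47.3, 71.1 and 60.2 CPM with DMSO and 426, 355 and 346 CPM at 1 µM, in 2 steps of nearly equal log2 size, 2.77 and 2.66. Serpinb6b and Serpinb9, inhibitors of granzymes and related proteases, rose by 6.72 ± 0.12 and 6.02 ± 0.13. Nudt17, a nudix hydrolase of the list, rose by 4.71 ± 0.10.

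The co-stimulatory ligands Cd80 and Cd86 rose as well, but no change was called between t0 and DMSO. Cd86 had 87.4, 98.2 and 99.04 CPM at t0, 109, 113 and 104 CPM with DMSO and 633, 634 and 481 CPM at 1 µM, a net change of 2.62 ± 0.13 (adjusted p = 1.04e-11), of which 0.20 lay between t0 and DMSO. Cd80 had 50.2, 44.4 and 48.8 CPM at t0, 45.8, 48.9 and 48.8 CPM with DMSO and 319, 334 and 227 CPM at 1 µM, a net change of 2.62 ± 0.17. The t0 and DMSO ranges of Cd80 overlapped, and all 1 µM libraries lay far above both. Only Aldh1a2, Ccl17 and Icosl of the 40 were not called in the net change; they are named for that reason, after their values were seen. Icosl, the ligand of the T cell receptor ICOS, was a cancelled rise, with 131, 156 and 120.2 CPM with DMSO and 44.6, 64.8 and 100.1 CPM at 1 µM.

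**Figure D2:**
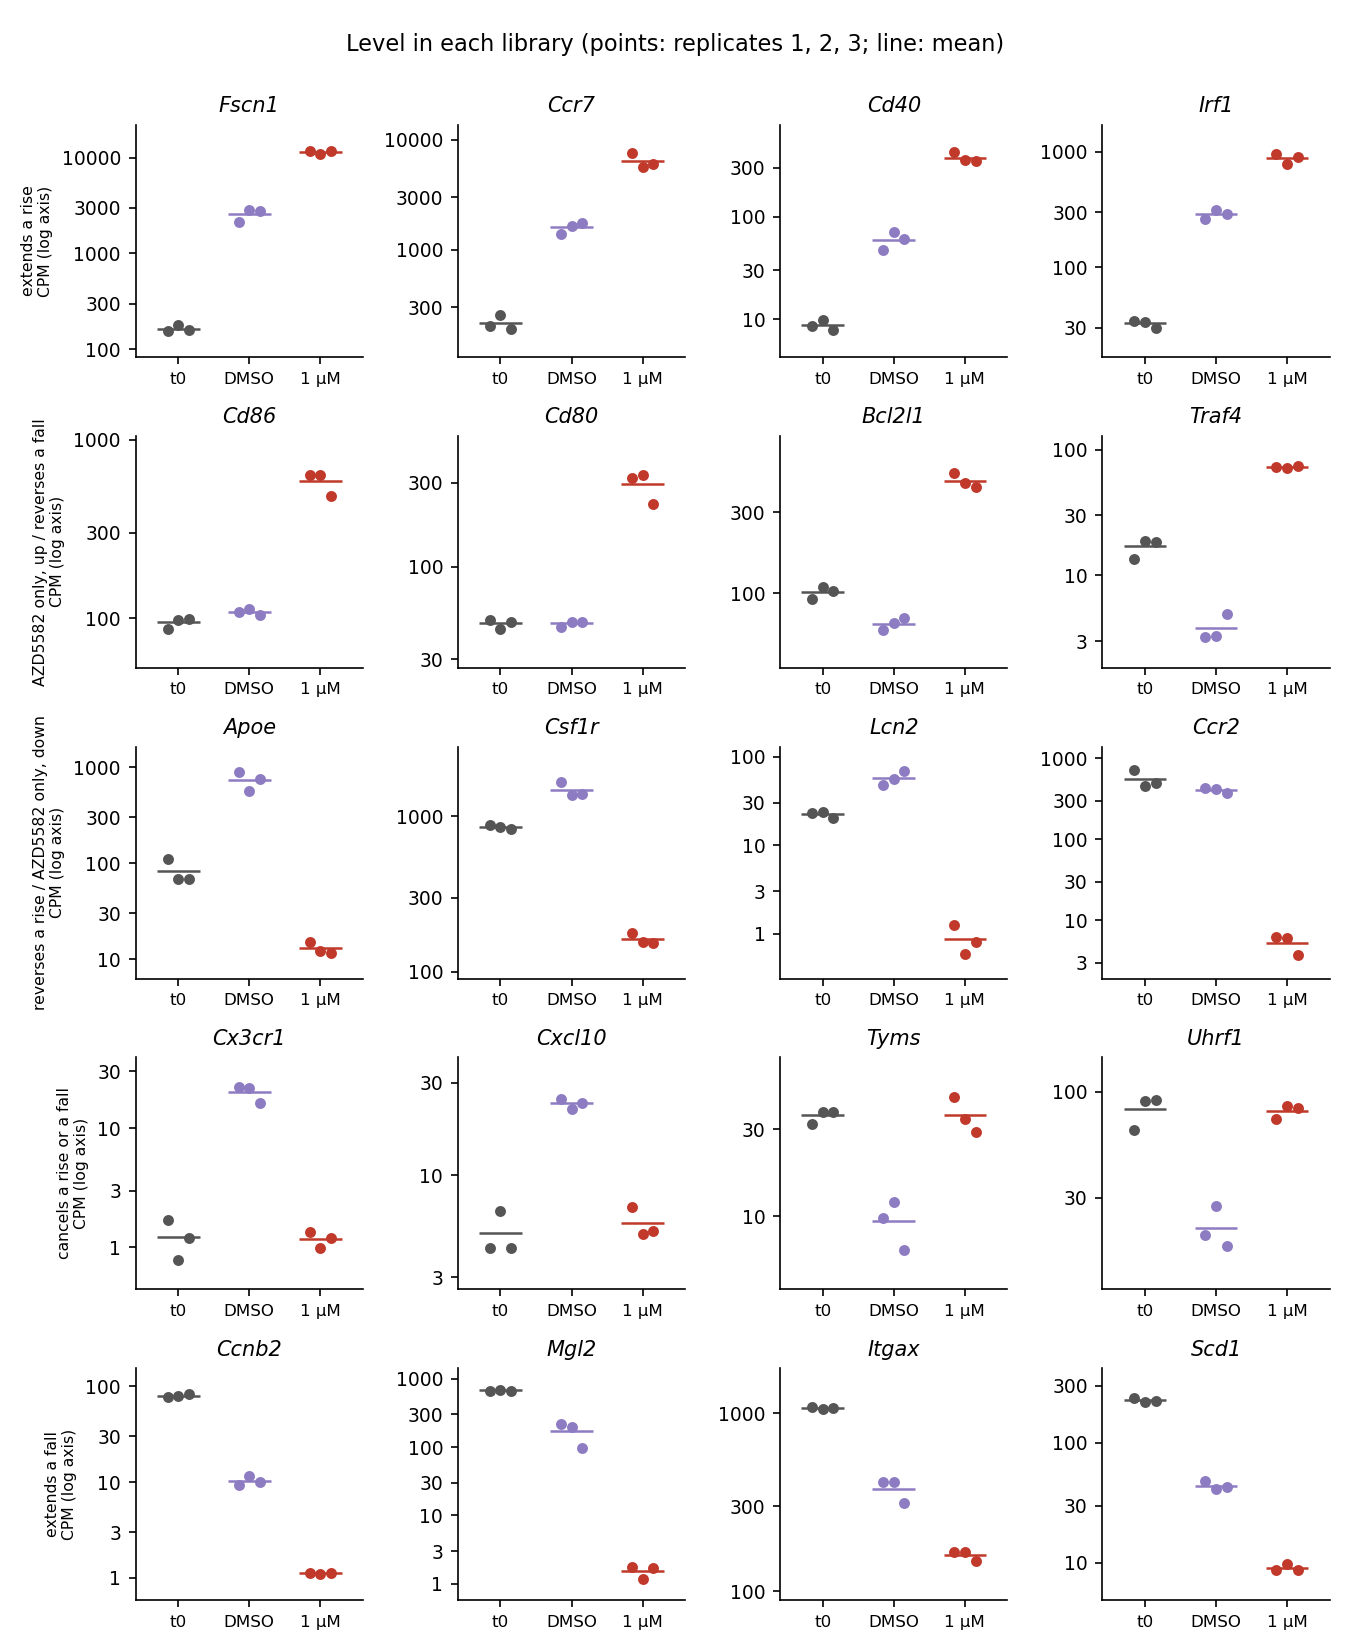
Level of 20 genes in each library in CPM on a log axis; points are the 3 replicates of t0, DMSO and 1 µM AZD5582 and the line is their mean. Rows show genes of different classes. Fscn1 climbs in both steps, Cd86 almost wholly in the second, and Ccnb2 falls in both. Apoe is above t0 with DMSO and below it at 1 µM. Tyms and Cx3cr1 are apart from t0 with DMSO and overlap it at 1 µM.

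Members of the TNF superfamily split. Of 27 tested, 12 rose and 14 fell, where 35% of all genes rose and 34% fell. Among the rises, Cd70, the ligand of CD27, went from a mean of 0.381 CPM at t0 through 3.45 to 49.8 CPM (net 7.04 ± 0.35), Tnfsf4, which encodes OX40 ligand, from 14.8 through 50.3 to 457 CPM (net 4.95 ± 0.15), and Tnfrsf4, its receptor OX40, rose by 3.71 ± 0.14. For 8 members AZD5582 extended a DMSO rise, and 8 others were lower with AZD5582 only, against 12.9% and 13.6% of all genes. Tnf itself had 28.7, 37.1 and 25.1 CPM at t0, 29.9, 30.8 and 19.2 CPM with DMSO and 13.6, 12.9 and 14.9 CPM at 1 µM and fell by 1.13 ± 0.17 on the log2 scale (adjusted p = 1.06e-05). Its 1 µM libraries all lay below those of t0 and DMSO. Tnfsf8, the ligand of CD30, fell in both steps, from 58.5 to 1.21 CPM.

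Of 25 tested interleukins and cytokines 14 rose and 9 fell, where 35% of all genes rose and 34% fell. Il12b, the shared p40 subunit of IL-12 and IL-23, had 2.04, 3.65 and 2.29 CPM at t0, 122, 174 and 226 CPM with DMSO and 738, 756 and 1009 CPM at 1 µM, a net change of 8.29 ± 0.27 (adjusted p = 7.07e-12), most of it (6.03) already present with DMSO. Il6, an inflammatory cytokine, had 1.13, 0.756 and 0.947 CPM at t0, 4.63, 6.10 and 5.67 CPM with DMSO and 189, 138 and 122 CPM at 1 µM, a net change of 7.30 ± 0.34 that came mostly from the second step (4.77). All groups were separate in both genes. Ebi3, a subunit of IL-27 and IL-35, Il15, a cytokine that sustains T and NK cells, and Tgfb2 rose by 2.52 ± 0.11, 3.70 ± 0.11 and 6.35 ± 0.22. Il16 and Il18 fell by 3.48 ± 0.17 and 2.90 ± 0.23 on the log2 scale. Osm, oncostatin M, shows a DMSO fall that was partly cancelled, with means of 81.3, 18.1 and 62.4 CPM; without replicate 1 or 3 of t0, or 1 or 3 of the 1 µM group, no net change was called and the fall counts as cancelled.

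Among 24 tested chemokines 12 rose and 8 fell, while 15 had risen and 7 fallen with DMSO. Over all genes 35% rose and 34% fell, and 27.2% and 20.3% with DMSO. Ccl22, a ligand of CCR4, had 920.1, 1065 and 881 CPM at t0, 3975, 5421 and 3397 CPM with DMSO and 56660, 45290 and 27070 CPM at 1 µM, the highest 1 µM level among the genes named here, with a net change of 5.49 ± 0.28. Its 3 libraries at 1 µM spread more than those of the other groups, and all lay above DMSO. Ccl5, Cxcl16 and Cx3cl1 rose by 3.39 ± 0.21, 3.53 ± 0.09 and 3.31 ± 0.09, each extending a DMSO rise. Ccl3 and Ccl4, inflammatory chemokines, fell by 3.32 ± 0.29 and 3.66 ± 0.32 on the log2 scale in 2 steps. Ccl17, the other CCR4 ligand, fell with DMSO and had 785, 659 and 173 CPM at 1 µM against 832, 893 and 792 CPM at t0. Its replicate 3 at 1 µM lay far below the other 2, no net change was called (log2 -0.64 ± 0.73), and its class was not stable: it counts as cancelled with all libraries and as kept without replicate 3 of t0, replicate 1 or 3 of DMSO, or replicate 1 or 2 of 1 µM.

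Of 22 tested chemoattractant receptors 6 rose and 12 fell. Ccr7 was among the rises. Ccr2, the receptor that brings monocytes out of bone marrow, had 716, 455 and 499 CPM at t0, 430.4, 418 and 375 CPM with DMSO and 6.19, 6.09 and 3.75 CPM at 1 µM, a fall of 6.71 ± 0.27 on the log2 scale (adjusted p = 7.43e-11) mostly in the second step. Its DMSO change of -0.45 was not called, except when t0, DMSO and 1 µM were fitted alone or without the filter on low counts. Ccr1 and Ltb4r1, receptors for inflammatory chemokines and leukotriene B4, fell by 3.12 ± 0.14 and 6.44 ± 0.34 in 2 steps. Fpr1, a receptor for bacterial peptides, stood at 45.1 CPM at t0, 84.4 CPM with DMSO and 1.70 CPM at 1 µM, a reversed rise. Cx3cr1, the fractalkine receptor, had 1.69, 0.786 and 1.21 CPM at t0, 22.2, 21.7 and 16.4 CPM with DMSO and 1.35, 0.992 and 1.19 CPM at 1 µM; the t0 and 1 µM ranges overlapped, and its rise with DMSO was cancelled (net -0.06 ± 0.34, 95% interval -0.79 to 0.66). Gpr183, an oxysterol receptor that positions DCs, rose by 1.37 ± 0.16.

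Genes for MHC class I and peptide loading mostly rose and those for MHC class II mostly fell. Of 24 class I genes 19 rose and 4 fell, with a median of 1.33. AZD5582 extended a DMSO rise in 13, against 12.9% of all genes. Psme2 and Psme1, the PA28 cap that alters proteasome cleavage, rose by 2.76 ± 0.12 and 2.22 ± 0.12, and Tapbpl, the TAP-binding protein related gene that edits peptides, by 3.59 ± 0.13. H2-K1 and B2m, the heavy and light chains of class I, stood at 952, 970.1 and 854 CPM at t0, 1766, 1839 and 1829 CPM with DMSO and 2643, 2352 and 2697 CPM at 1 µM and at 2537, 2489 and 2125 CPM at t0, 3504, 3877 and 3946 CPM with DMSO and 9301, 5599 and 6020 CPM at 1 µM, net changes of 1.47 ± 0.10 and 1.55 ± 0.15. Replicate 1 of the 1 µM group was the high one for B2m, and every 1 µM library of both genes lay above DMSO. Tap1, which pumps peptides into the endoplasmic reticulum, rose by 0.75 ± 0.10; its small DMSO rise was not called without replicate 1 or 3 of t0 or replicate 2 of DMSO. H2-Q4 rose by 3.06 ± 0.13, though reads of near-identical class I copies can be split in counting.

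Of 15 genes for MHC class II and processing 3 rose and 10 fell, with a median of -0.98. H2-Ob and H2-DMb1, chains of the chaperones that edit class II peptides, fell in both steps by 4.21 ± 0.19 and 2.17 ± 0.13 on the log2 scale. Ctss, the protease that trims the invariant chain, had 3988, 3494 and 3379 CPM at t0 and 1401, 1208 and 1308 CPM at 1 µM, a fall with AZD5582 only. The beta chain H2-Eb2 rose with DMSO and was partly cancelled, with means of 8.21, 160.0 and 65.2 CPM. H2-Ab1, a DC marker on the list, fell from 2433, 2797 and 2680 CPM to 1042, 748 and 845 CPM (net -1.59 ± 0.13), and for the classical chains H2-Aa and H2-Eb1 a DMSO rise was cancelled, with net changes of -0.19 ± 0.15 and -0.03 ± 0.14 that were not called; these 3 lie outside the naming rule and were chosen after their values were seen.

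Genes of the BCL2 family and of death signalling rose more often than they fell, 19 against 8 of 32 tested, where 35% of all genes rose and 34% fell. Bcl2l1, the gene of the survival protein BCL-XL, had 92.3, 108 and 104 CPM at t0, 60.6, 67.0 and 70.9 CPM with DMSO and 507, 444 and 423 CPM at 1 µM. It was lower with DMSO than at t0 and higher than both with AZD5582, a reversed fall with a net change of 2.18 ± 0.10 (adjusted p = 4.78e-12). Cflar, which encodes c-FLIP, the inhibitor of caspase-8, rose by 2.53 ± 0.09 in 2 steps, as did the death receptor Fas by 1.82 ± 0.11. Bcl2, another survival protein, fell with DMSO and the fall was kept, from a mean of 21.97 to 5.36 and 4.94 CPM. Bid, which links death receptors to mitochondria, fell by 1.76 ± 0.13 on the log2 scale.

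The 10 largest net rises were of genes near 0 at t0. Plat, tissue plasminogen activator, had 0.0140, 0.185 and 0.0305 CPM at t0, 6.09, 9.06 and 6.33 CPM with DMSO and 146, 96.6 and 132 CPM at 1 µM, a net change of 10.67 ± 0.64 (adjusted p = 6.23e-13), and Synpo2, an actin-binding protein, had 0.349, 0.370 and 0.275 CPM at t0, 22.1, 34.4 and 38.04 CPM with DMSO and 302, 331 and 422 CPM at 1 µM, a net change of 10.04 ± 0.32. The groups did not overlap in either gene. A further 4 genes had 0 counts over the 3 t0 libraries, so only a lower bound can be given, taken against 3 counts over the group. At 1 µM Tead2, a partner of the Hippo pathway's YAP, was at least 1060-fold higher than at t0, Trim43b at least 1050-fold, BC016579 at least 771-fold and Gcm1, a transcription factor known from placenta, at least 723-fold. Trim43b belongs to a family of near-identical copies, so its reads may be shared with others. Scube3 and Gjb2, a secreted glycoprotein and a gap junction protein, had 1 count each at t0, with ratios of 6110 (95% counting interval 1100 to 241000) and 1790 (321 to 70800), and Wfdc13 had 2 counts, with a ratio of 917 (253 to 7570). With DMSO alone Scube3 already had a ratio to t0 of 3690 (661 to 146000), Wfdc13 of 206 (56.7 to 1710) and Gjb2 of 72.1 (12.6 to 2880). Tead2 was at least 184-fold above t0 with DMSO, Gcm1 at least 108-fold, BC016579 at least 57.4-fold and Trim43b at least 6.78-fold. These intervals and bounds cover counting error only. The ratios and bounds are scaled to summed gene counts, without the TMM adjustment used for CPM.

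Dll4, a Notch ligand through which DCs instruct T cells, was among the 10 largest rises. It had 0.168, 0.0154 and 0.0153 CPM at t0, 0.149, 0.351 and 0.341 CPM with DMSO and 77.6, 62.6 and 87.5 CPM at 1 µM. Most of its net change of 10.06 ± 0.61 lay between DMSO and 1 µM (8.11). At t0 replicate 1 lay above the other 2, within the range of DMSO, and the DMSO rise was not called without replicate 2 or 3 of t0 or replicate 2 of DMSO; the gene then counts as up with AZD5582 only. Jag1, another Notch ligand, had 4.59, 3.90 and 3.97 CPM at t0, 46.6, 60.2 and 65.7 CPM with DMSO and 414, 352 and 497 CPM at 1 µM, a net change of 6.66 ± 0.17 with separate groups throughout. Among the receptors Notch1 fell by 2.85 ± 0.14 and Notch2 by 0.96 ± 0.11 on the log2 scale, and Mfng and Lfng, enzymes that add sugars to Notch, by 3.56 ± 0.24 and 1.18 ± 0.10. Over the 21 tested Notch pathway genes 6 rose and 8 fell, near the shares of all genes (35% and 34%). Neurl1a, a ubiquitin ligase of the list, was a reversed fall, with means of 1.25, 0.211 and 11.7 CPM.

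Many genes of monocytes and macrophages were reversed rises: they were above t0 with DMSO and below t0 with AZD5582. Of 25 tested markers 2 rose and 22 fell, with a median of -2.06, and 13 were reversed rises against 2.55% of all genes. Apoe, a lipid carrier that macrophages secrete, had 110.1, 68.3 and 69.3 CPM at t0, 883, 570.0 and 747 CPM with DMSO and 15.0, 12.2 and 11.7 CPM at 1 µM. With DMSO it was 3.15 above t0 on the log2 scale, and at 1 µM its net change was -2.67 ± 0.18 (adjusted p = 1.46e-09). Csf1r, the receptor of macrophage colony-stimulating factor, had 879.7, 854 and 829.8 CPM at t0, 1650, 1361 and 1378 CPM with DMSO and 176, 155 and 153 CPM at 1 µM and a net change of -2.40 ± 0.13, and Lyz2, the lysozyme of myeloid cells, had 20170, 16400 and 15570 CPM at t0, 27820, 22920 and 23560 CPM with DMSO and 3530, 4419 and 4594 CPM at 1 µM and a net change of -2.06 ± 0.13. In all 3 genes DMSO was the highest group and 1 µM the lowest, with no overlap. The exceptions in direction were Marco, a scavenger receptor, and Ms4a7, which rose from t0 by 0.59 ± 0.14 and 1.32 ± 0.22.

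Of 24 tested genes for complement and uptake of dead cells 4 rose and 17 fell, and 8 were reversed rises, against 2.55% of all genes. The C1q chains C1qa, C1qb and C1qc among these 8 were also counted with the 13 macrophage markers above. Axl and Pros1, a receptor for dying cells and a ligand of its family, fell in both steps by 3.11 ± 0.11 and 4 ± 0.15 on the log2 scale, and Cfp, properdin, by 3.03 ± 0.13 with AZD5582 only. Tyro3, a relative of Axl, was a reversed fall and rose by 1.24 ± 0.11. Of 24 genes for lipid handling 5 rose and 17 fell, with 8 reversed rises, of which Apoe, Gpnmb and Trem2 were also among those 13. Scd1 and Scd2, desaturases that make monounsaturated fatty acids, and the nuclear receptor Pparg fell in both steps by 4.64 ± 0.12, 4.19 ± 0.14 and 2.95 ± 0.15. Nr1h3, which encodes the oxysterol receptor LXR alpha, rose by 2.13 ± 0.20.

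Of 23 Toll-like receptor genes and adaptors 3 rose and 17 fell, 7 of them as reversed rises (2.55% of all genes). Tlr2 and Tlr4, receptors for bacterial lipoproteins and lipopolysaccharide, had 258, 235 and 204 CPM at t0, 293, 229 and 207 CPM with DMSO and 22.98, 26.6 and 24.5 CPM at 1 µM and 138, 126 and 110.3 CPM at t0, 57.6, 55.9 and 62.8 CPM with DMSO and 13.0, 14.8 and 9.94 CPM at 1 µM. Tlr2 fell by 3.23 ± 0.16 net with no called DMSO change, and Tlr4 fell in both steps by 3.31 ± 0.18. Unc93b1, the chaperone of the endosomal receptors, was a reversed rise with a net change of -1.59 ± 0.11. Tlr1 and Ly96 were among the 3 that rose, by 1.502 ± 0.16 and 1.29 ± 0.14.

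Most neutrophil markers fell. Of 22 neutrophil markers 1 rose and 20 fell, with a median net log2 change of -4.66 that was 0.183 with DMSO. The summed level was 2102 to 2483 CPM at t0, 1820 to 2198 CPM with DMSO and 246.8 to 318.1 CPM at 1 µM. Chil3 and Mmp8 made up most of it in each group. Their means at t0, with DMSO and at 1 µM were 1290, 973 and 208 CPM and 568, 373 and 47.6 CPM. S100a9, a calcium-binding protein of neutrophils and monocytes, had 104, 85.3 and 108 CPM at t0, 113, 122 and 160.2 CPM with DMSO and 1.84, 0.472 and 1.12 CPM at 1 µM, a net change of -6.45 ± 0.33. Lcn2 and Ltf, the iron-binding granule proteins lipocalin-2 and lactoferrin, were reversed rises. Lcn2 had 23.1, 23.9 and 20.4 CPM at t0, 48.0, 56.1 and 68.5 CPM with DMSO and 1.25, 0.590 and 0.795 CPM at 1 µM. Ltf had means of 23.04 CPM at t0, 50.2 CPM with DMSO and 0.122 CPM at 1 µM. Ngp, another granule protein, and Padi4, which citrullinates histones, fell by 7.56 ± 0.61 and 5.81 ± 0.32 on the log2 scale. The exception was Mmp9, a secreted protease, a partly cancelled rise with a net change of 1.35 ± 0.20.

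C-type lectins, by which immature DCs and macrophages take up glycans, held 3 of the 10 largest falls (Cd209a, Asgr2 and Mgl2). Of 22 tested 4 rose and 14 fell, with a median of -2.45. Mgl2 and Clec10a, galactose-type lectins, had 663, 691 and 668 CPM at t0, 215, 196 and 95.8 CPM with DMSO and 1.76, 1.18 and 1.69 CPM at 1 µM and 95.2, 72.8 and 76.9 CPM at t0, 32.5, 31.9 and 21.4 CPM with DMSO and 0.639, 0.331 and 0.473 CPM at 1 µM, net changes of -8.77 ± 0.31 and -7.41 ± 0.26. Asgr2, an asialoglycoprotein receptor chain, fell by 9.20 ± 0.35 and Mrc1, the mannose receptor, by 4.03 ± 0.13. All 4 had fallen with DMSO, and the 3 groups of each did not overlap. Cd209a, a relative of human DC-SIGN with close copies in the mouse, had 6779 counts over the t0 libraries and 1 over those at 1 µM. Scaled to summed gene counts, without the TMM adjustment used for CPM, its level fell 5910-fold (counting interval, 95%, from 1060 to 233000). The fitted log2 change, with that adjustment, was -11.77. Clec12a, an inhibitory receptor, fell by 3.52 ± 0.14 with AZD5582 only. Ly75, which encodes the uptake receptor DEC-205, rose by 3.47 ± 0.16 in both steps, and Clec4e and Clec4d, sensors of mycobacterial and fungal lipids, were partly cancelled rises with net changes of 1.24 ± 0.11 and 0.51 ± 0.15; Clec4d counts as cancelled without replicate 1 of the 1 µM group.

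The other largest falls came from genes of several kinds. Cd300lg had 2678 counts over the t0 libraries and 2 over those treated with AZD5582, a 1170-fold fall (counting interval, 95%, from 323 to 9640) with no called DMSO change. Cd300e, an activating receptor of monocytes, fell by 8.30 ± 0.64 on the log2 scale, Fcrls, an Fc receptor-like protein of macrophages, by 8.08 ± 0.34 and Ppfia4, a liprin, by 7.67 ± 0.52. Most of the fall of Cd300e was in the first step (-5.48) and most of that of Fcrls in the second (-6.99). Klk1b9, Klrb1f and Cyp4a12a were also among the 10 largest falls and belong to families with close copies. Arg1, arginase of alternatively activated macrophages, had 103, 34.4 and 54.1 CPM at t0, 101, 159 and 30.7 CPM with DMSO and 0.358, 0.685 and 0.360 CPM at 1 µM; its t0 and DMSO libraries spread widely and overlapped, and all 3 at 1 µM lay below 1 CPM.

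Interferon response genes moved in both directions. Of 43 tested 12 rose and 26 fell, with a median of -1.28. Irf1, a transcription factor that interferon and NF-kB both induce, had 34.3, 33.7 and 29.8 CPM at t0, 262, 314 and 286 CPM with DMSO and 954, 783 and 892 CPM at 1 µM, a net change of 4.75 ± 0.10 (adjusted p = 1.48e-15) in 2 extending steps with separate groups. Gbp5, a guanylate-binding protein, rose by 2.45 ± 0.15. Ifi203 and Ifi204, members of a family with close copies, fell by 3.57 ± 0.20 and 2.52 ± 0.16 on the log2 scale, and Siglec1, a sialic acid receptor of macrophages, fell by 3.71 ± 0.24. Their net falls held without each library in turn. Of the 43, 5 were reversed rises (Cmpk2, Ifit1, Ifit2, Ifit3 and Mx2) and 3 cancelled rises (Mx1, Parp14 and Rsad2). Over all genes these classes held 2.55% and 2.22%. The chemokine Cxcl10 was a cancelled rise as well, with 4.26, 6.60 and 4.26 CPM at t0, 24.7, 22 and 23.7 CPM with DMSO and 6.90, 4.98 and 5.17 CPM at 1 µM and a net change of 0.17 ± 0.23.

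**Figure D3:**
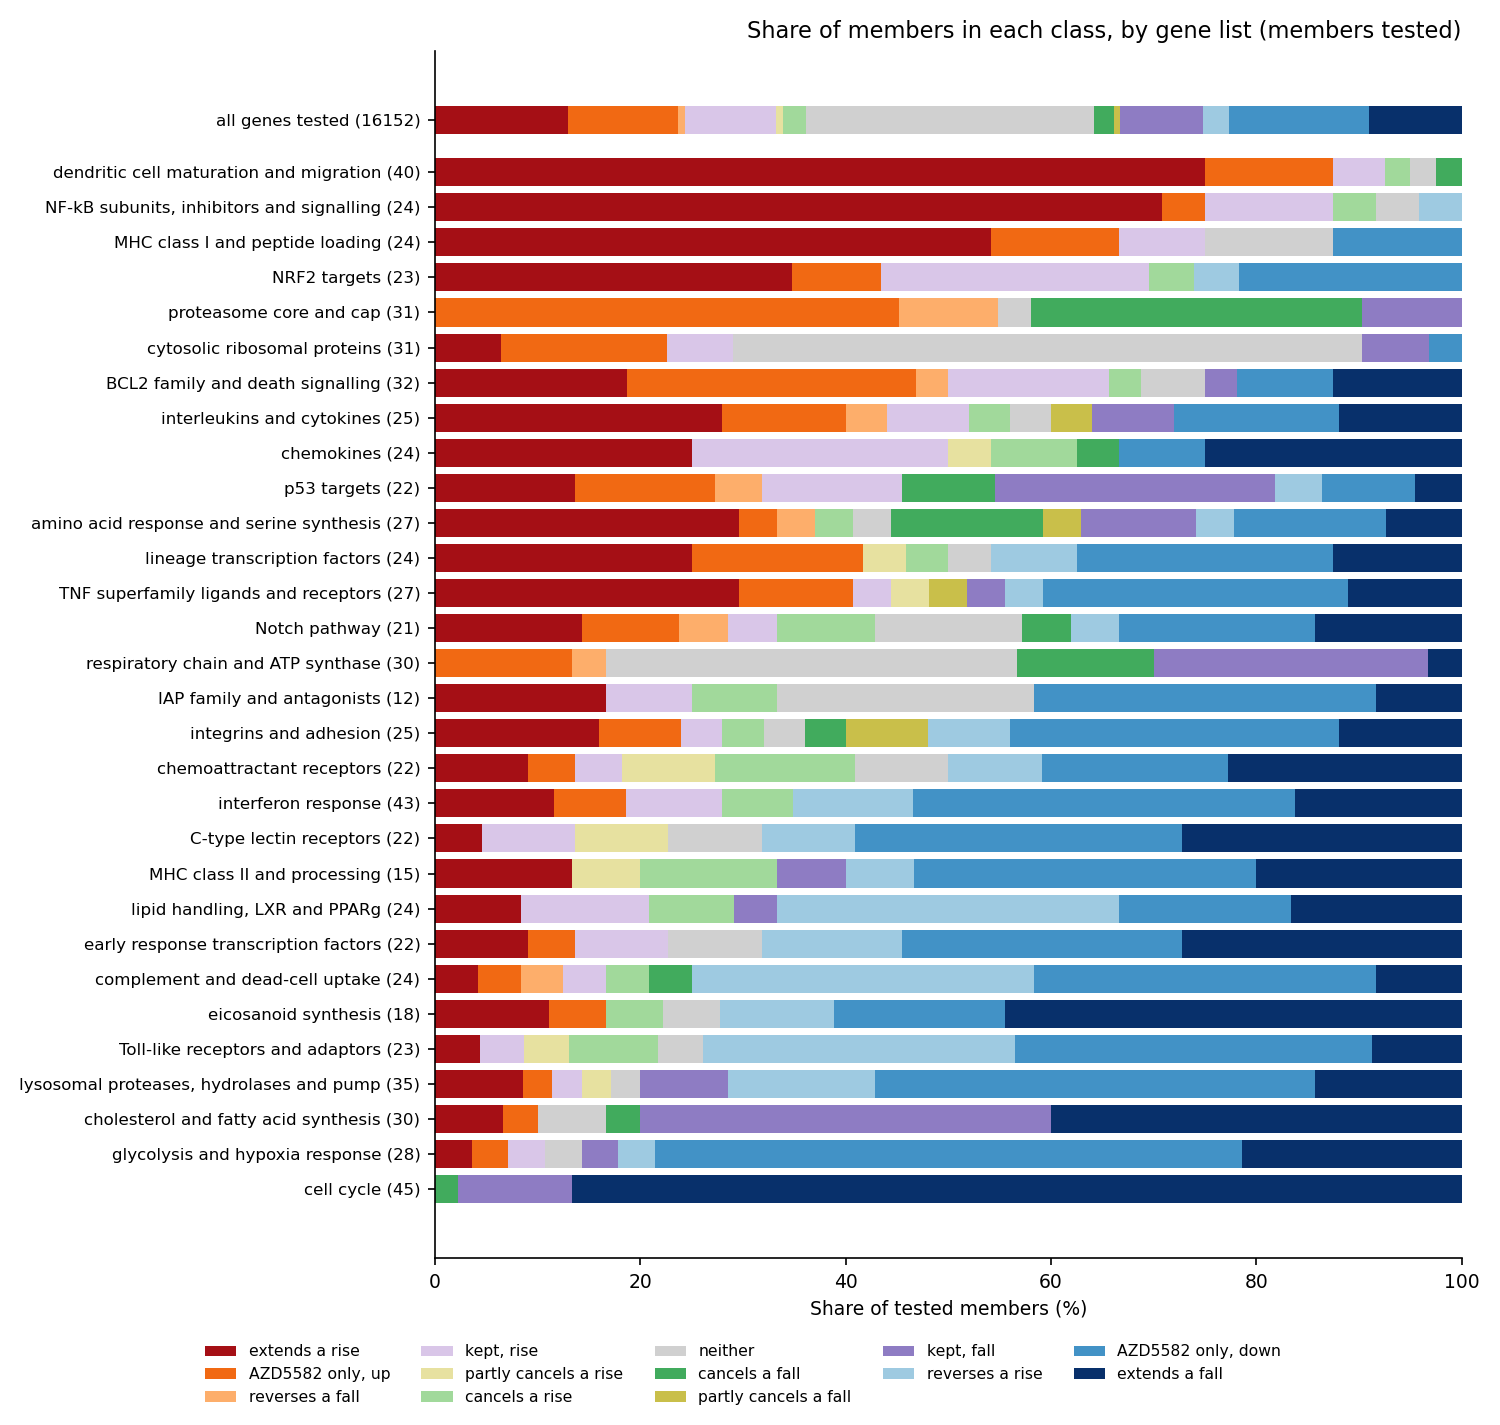
Share of the tested members of 30 pathway lists in each class, as percent of the members tested (number in brackets), with all 16152 genes tested at the top. Extended rises fill most of the maturation and NF-kB bars (30 of 40 and 17 of 24), extended falls most of the cell cycle bar (39 of 45), and the macrophage-related lists of complement and lipid handling have the widest reversed rises (8 of 24 each).

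Cell division genes were below t0 with DMSO, and most were lower still with AZD5582. Of 45 tested none rose and 44 fell from t0, with a median of -3.93 (-2.71 with DMSO), and 39 were extended falls against 9.05% of all genes. Ccnb2, a mitotic cyclin, had 77.8, 79.1 and 83.1 CPM at t0, 9.27, 11.7 and 10.0 CPM with DMSO and 1.12, 1.09 and 1.12 CPM at 1 µM, a net change of -6.17 ± 0.20 (adjusted p = 4.48e-14). Plk1, a mitotic kinase, had 50.4, 61.1 and 58.5 CPM at t0, 7.20, 8.82 and 5.96 CPM with DMSO and 0.767, 0.968 and 1.00 CPM at 1 µM, a net change of -5.94 ± 0.22. In both genes the 1 µM libraries lay several-fold below those with DMSO. Mki67, the antigen Ki-67, had 269, 234 and 358 CPM at t0, 54.9, 68.4 and 41.3 CPM with DMSO and 17.0, 26.7 and 20.4 CPM at 1 µM, and Stmn1 and E2f1, a microtubule regulator and a transcription factor of the S phase, fell by 4.49 ± 0.16 and 2.96 ± 0.12 on the log2 scale.

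The exception was Tyms, thymidylate synthase. It had 32.2, 37.6 and 37.6 CPM at t0, 9.80, 12.0 and 6.56 CPM with DMSO and 45.1, 34.3 and 28.9 CPM at 1 µM, a cancelled fall with a net change of 0.01 ± 0.22 (95% interval -0.45 to 0.48), and its t0 and 1 µM ranges overlapped. Uhrf1, which maintains DNA methylation at replication and is not on the list, followed the same order, with 64.7, 90.2 and 90.4 CPM at t0, 19.7, 27.2 and 17.3 CPM with DMSO and 72.9, 85.1 and 82.7 CPM at 1 µM and a net change of -0.03 ± 0.15 (95% interval -0.33 to 0.28). Both are named by the rule as cancelled falls with the largest second steps. Ccnd2, a G1 cyclin, and Btla, an inhibitory receptor, were also cancelled falls, at 390.3, 467 and 128 CPM and 36.4, 38.3 and 37.3 CPM at 1 µM; replicate 3 of Ccnd2 was the low one, and Btla counts as a reversed fall without replicate 2 of DMSO.

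Most genes for cholesterol and fatty acid synthesis were below t0 both with DMSO and at 1 µM. Of 30 tested 2 rose and 24 fell from t0 with a median of -1.28, while 25 had fallen with DMSO. Between 1 µM and DMSO 12 were lower and 4 higher, so 12 falls were extended and 12 kept. Over all genes 20.3% fell with DMSO, and 28.2% were lower and 26.9% higher at 1 µM than with DMSO. Extended falls were 9.05% and kept falls 8.01% of all genes. Dhcr7, a late enzyme of cholesterol synthesis, fell in both steps by 2.52 ± 0.09 on the log2 scale, and Fads1, a desaturase of polyunsaturated fatty acids, by 2.10 ± 0.10. Idi1 and Pmvk, early enzymes of the pathway, went the other way, with 26.4, 30.1 and 29.6 CPM at t0, 55.1, 57.5 and 75.6 CPM with DMSO and 120.1, 188 and 219 CPM at 1 µM and 26.4, 28.2 and 24.97 CPM at t0, 44.8, 44.3 and 48.7 CPM with DMSO and 147, 132 and 149.8 CPM at 1 µM, net changes of 2.61 ± 0.19 and 2.43 ± 0.09.

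Most glycolysis and lysosome genes were lower with AZD5582 than with DMSO, 23 of 28 and 26 of 35, against 28.2% of all genes. Of 28 genes for glycolysis and the hypoxia response 3 rose and 24 fell, with a median of -1.92 (-0.0317 with DMSO), and 16 were lower with AZD5582 only against 13.6% of all genes. Hk3, a myeloid hexokinase, and Pfkfb4, which sets the level of a glycolytic activator, fell by 2.09 ± 0.12 and 2.30 ± 0.11 on the log2 scale. Aldoc, an aldolase, fell by 4.16 ± 0.17, from 147 to 8.22 CPM. Pfkfb3, the inducible relative of Pfkfb4, went the other way, with 38.2, 42.0 and 40.9 CPM at t0, 446, 509 and 617 CPM with DMSO and 1226, 1356 and 1696 CPM at 1 µM and a net change of 5.14 ± 0.14. Hk1 rose by 0.58 ± 0.16.

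Of 35 lysosome genes 6 rose and 28 fell, 15 with AZD5582 only (13.6% of all genes). Man2b1, a mannosidase, had 749, 691 and 664 CPM at t0, 767, 664 and 665 CPM with DMSO and 51.0, 76.4 and 73.5 CPM at 1 µM, so that t0 and DMSO overlapped and 1 µM lay well below both (net -3.39 ± 0.14). Ctsa, a carboxypeptidase, fell by 1.91 ± 0.09 on the log2 scale. Scpep1, a carboxypeptidase, and Cd63, a membrane protein of late endosomes, rose by 2.32 ± 0.10 and 1.31 ± 0.13. Of 18 genes for eicosanoids, the lipid mediators made from arachidonic acid, 3 rose and 13 fell. Alox5ap and Lta4h of the leukotriene branch fell in both steps by 3.25 ± 0.11 and 2.88 ± 0.09, Tbxas1, thromboxane synthase, fell by 3.23 ± 0.10, and Ptgs2 (COX-2), the inducible prostaglandin enzyme, had 1.68, 2.00 and 4.47 CPM at t0, 5.54, 13.2 and 14.0 CPM with DMSO and 212, 181 and 307 CPM at 1 µM and rose by 6.43 ± 0.43. Its 1 µM libraries lay far above every other library. Ptger4, a prostaglandin E2 receptor of migrating DCs, rose by 3.56 ± 0.10.

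Proteasome genes changed little in size. Of 31 core and cap genes none rose and 16 fell with DMSO, and 27 were higher at 1 µM than with DMSO. Over all genes 27.2% rose and 20.3% fell with DMSO, and 26.9% were higher at 1 µM than with DMSO. From t0, 16 of the 31 rose and 3 fell, with a median of 0.235. By class 14 were up with AZD5582 only, 10 were cancelled falls and 3 were reversed falls, against 10.8%, 1.93% and 0.7% of all genes. Psma6, a ring subunit, had 167, 168 and 156 CPM at t0, 165, 166 and 150.4 CPM with DMSO and 512, 456 and 347 CPM at 1 µM and rose by 1.42 ± 0.14, and Psmd4, a ubiquitin receptor of the cap, by 1.03 ± 0.11. Replicate 1 was the highest of the 1 µM libraries in both. Psmd3 and Psmd8 were kept falls, with net changes of -0.48 ± 0.08 and -0.48 ± 0.08.

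Of 30 respiratory chain genes 6 rose and 9 fell, with a median of -0.141. Ndufv2 rose by 1.61 ± 0.16 and Ndufs1, another subunit of complex I, fell by 1.00 ± 0.11 on the log2 scale. Of 23 targets of the oxidative stress factor NRF2 16 rose and 6 fell, with a median of 0.977. Txn1, thioredoxin, Slc7a11, the cystine importer, Srxn1, which repairs peroxiredoxins, and Sqstm1, the autophagy receptor p62, rose by 1.80 ± 0.13, 1.93 ± 0.13, 1.74 ± 0.12 and 1.83 ± 0.13, all in 2 steps. Tkt, a pentose phosphate enzyme, and Mgst1 fell by 1.21 ± 0.12 and 1.96 ± 0.16. Of 27 genes of the amino acid response 9 rose and 9 fell, near the shares of all genes (35% and 34%). Arg2, the mitochondrial arginase, had 3.28, 3.48 and 2.96 CPM at t0, 24.0, 32.3 and 31.5 CPM with DMSO and 148, 142 and 135 CPM at 1 µM and rose by 5.45 ± 0.11 with separate groups, and Mthfd2, of mitochondrial folate metabolism, rose by 2.74 ± 0.12. Phgdh, the first enzyme of serine synthesis, fell by 4.57 ± 0.29 and Shmt2 and Aldh18a1 by 1.78 ± 0.15 and 1.96 ± 0.13.

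Of 24 lineage transcription factors 10 rose and 11 fell, where 35% of all genes rose and 34% fell. Irf8, a factor of type 1 DCs and monocytes, had 138, 147 and 129 CPM at t0, 535, 660.0 and 632 CPM with DMSO and 2133, 1923 and 1913 CPM at 1 µM, a net change of 3.85 ± 0.10, and Batf3, its partner, rose by 2.72 ± 0.11; in both AZD5582 extended the DMSO rise with no overlap of groups. Etv6 rose by 1.97 ± 0.07. Zeb2, which favours macrophages and other myeloid fates, was a reversed rise with a net change of -1.70 ± 0.10, and Runx1 fell by 1.92 ± 0.10 on the log2 scale. Id3, an inhibitor of E proteins, was a partly cancelled rise, with means of 0.193, 19.9 and 2.03 CPM. Of 22 early response factors 5 rose and 16 fell. Egr1, which growth factors induce, had 221, 235 and 266 CPM at t0, 146, 129.6 and 95.1 CPM with DMSO and 5.29, 6.82 and 5.53 CPM at 1 µM, and fell by 5.36 ± 0.16. Myc, a driver of growth, and Klf4 fell in both steps by 3.11 ± 0.13 and 3.48 ± 0.14, while Nr4a2 rose by 4.90 ± 0.25 and Maff by 1.45 ± 0.12.

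Of 25 integrin and adhesion genes 8 rose and 13 fell, where 35% of all genes rose and 34% fell. Icam1, a ligand for T cell LFA-1, and Itga4, an integrin chain, rose in 2 steps by 2.36 ± 0.10 and 3.05 ± 0.11. Itgam, which encodes CD11b, had 509.7, 409 and 480.0 CPM at t0, 469, 436 and 391.7 CPM with DMSO and 47.0, 46.7 and 38.3 CPM at 1 µM, with t0 and DMSO overlapping and a fall of 3.41 ± 0.15 on the log2 scale. Cdh1, E-cadherin, had 278, 391 and 414 CPM at t0, 19.7, 18.3 and 15.4 CPM with DMSO and 35.7, 39.1 and 34.2 CPM at 1 µM, a fall with DMSO that AZD5582 partly cancelled (net -3.31 ± 0.14).

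Reversed falls were fewer than reversed rises, 113 against 412. Traf4, a signalling adaptor, had 13.6, 18.8 and 18.6 CPM at t0, 3.23, 3.30 and 4.92 CPM with DMSO and 73.1, 70.7 and 73.3 CPM at 1 µM, a net change of 2.09 ± 0.15 (adjusted p = 1.33e-09), with every 1 µM library above t0 and every DMSO library below it. Pmepa1, an inhibitor of TGF-beta signalling, and Suv39h2, a histone methyltransferase, followed the same order, with net rises of 1.56 ± 0.14 and 2.05 ± 0.25. Dapk2, a death-associated kinase, rose by 2.91 ± 0.12, but its small DMSO fall was not called without replicate 2 or 3 of t0 or replicate 1 or 3 of DMSO. The number of reversed falls itself dropped to 74 without replicate 2 of t0 and to 69 without replicate 3 of t0, from 113.

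Partly cancelled falls left genes below t0 but above DMSO. Car4, a carbonic anhydrase, had 177, 153 and 141 CPM at t0, 2.19, 4.27 and 1.51 CPM with DMSO and 18.4, 19.8 and 10.1 CPM at 1 µM, and Nanos1, an RNA-binding regulator, had 21.9, 29.1 and 27.3 CPM at t0, 1.27, 1.11 and 1.06 CPM with DMSO and 5.04, 4.91 and 4.66 CPM at 1 µM; their net changes were -3.29 ± 0.45 and -2.42 ± 0.14. Syt9, a calcium sensor of vesicle release, had a net change of -0.91 ± 0.16, and Ch25h, which makes 25-hydroxycholesterol, one of -0.96 ± 0.31 that was not called without replicate 3 of the 1 µM group. Among partly cancelled rises Fyb, an adaptor of adhesion signalling, had 38.5, 31.4 and 33.1 CPM at t0, 125, 132 and 127 CPM with DMSO and 41.7, 47.3 and 56.2 CPM at 1 µM and a net change of 0.50 ± 0.13. Arrdc3 had a net change of 0.33 ± 0.10 that was not called without replicate 2 or 3 of t0 or replicate 3 of 1 µM, and Cxcl14 one of 0.49 ± 0.19 that was not called without replicate 1 or 3 of t0 or replicate 1 or 2 of 1 µM. Mefv, which encodes pyrin, Pf4, a platelet and macrophage chemokine, and Ms4a6b were cancelled rises, with net changes of 0.19 ± 0.29, -0.23 ± 0.24 and -0.43 ± 0.30 that were not called; without replicate 1 of 1 µM Pf4 counts as reversed.

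The genes that rose with AZD5582 only and by most were expressed at a few CPM or less before. Oaf had 0.698, 1.45 and 1.19 CPM at t0, 0.981, 1.48 and 1.45 CPM with DMSO and 18.1, 18.1 and 18.2 CPM at 1 µM, a net change of 4.03 ± 0.21, and Plek2, an actin regulator, had 1.69, 1.97 and 1.51 CPM at t0, 1.61, 1.81 and 1.26 CPM with DMSO and 38.2, 40.9 and 18.3 CPM at 1 µM, a net change of 4.23 ± 0.40. The t0 and DMSO libraries overlapped in both and lay below all 1 µM libraries. Pla1a and Enpp2, a phospholipase and the enzyme autotaxin that makes lysophosphatidic acid, rose by 4.34 ± 0.49 and 5.77 ± 0.87, with replicate 3 at 1 µM the lowest of its group in both (27.1 and 5.42 CPM).

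**Figure D4:**
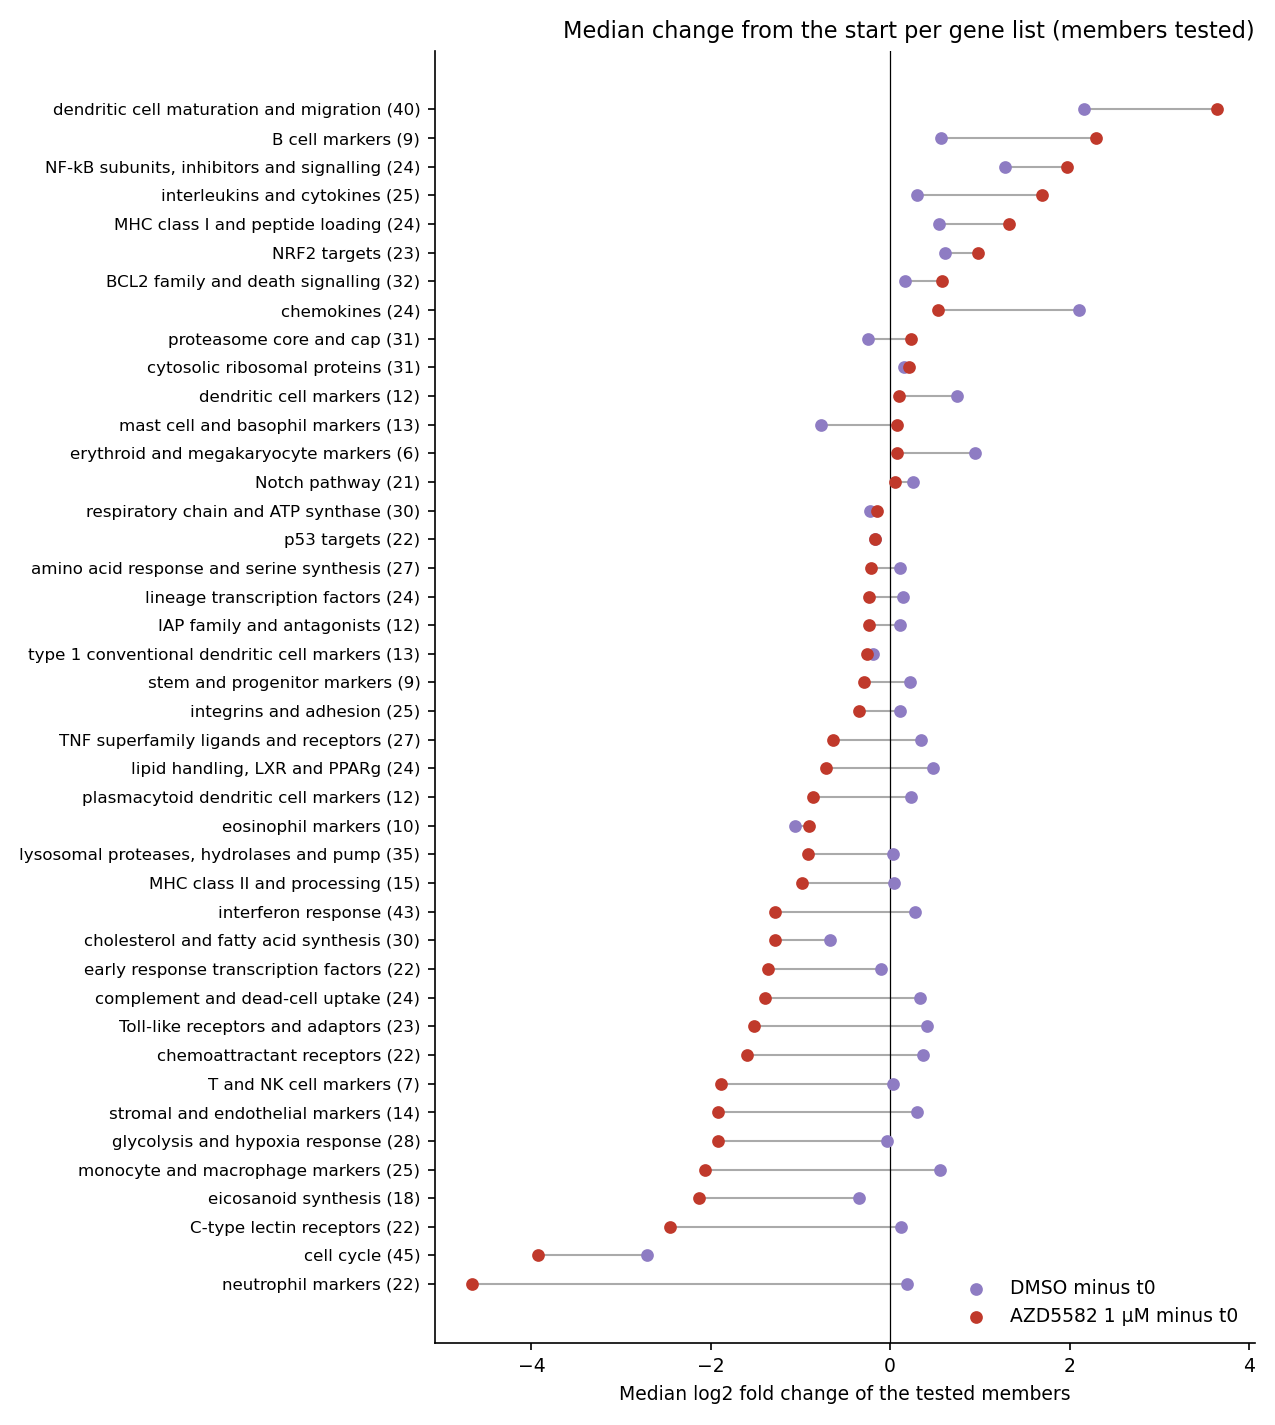
Median log2 change from t0 of the tested members of 42 gene lists (number tested in brackets), with DMSO in purple and 1 µM AZD5582 in red, ordered by the AZD5582 median. The maturation list moves from 2.16 to 3.65 and the cell cycle list from -2.71 to -3.93, in the direction of the DMSO change, while the monocyte and macrophage list moves from above 0 with DMSO to -2.06.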

How the data were processed

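RNA-seq read counts per gene were used as deposited, 1 table per library. Per the submitters' processing notes, STAR 2.7.3a, HTSeq 0.12.4, DESeq2 1.30.1 and the genome build GRCm39 were used; the release of the annotation and the strand setting were not stated in the labels, so reads of overlapping antisense genes cannot be told apart. Reads not assigned to a gene were 10.98% to 16.42% of each library and stayed out of library sizes. Of 55414 gene identifiers 52081 were given a symbol from an annotation of the older build GRCm38, used for names only. The 15 GM-CSF libraries (t0, DMSO and 3 doses) were fitted together with edgeR 4.0.16 in R 4.3.3, after filterByExpr and TMM scaling, with a quasi-likelihood test and Benjamini-Hochberg adjustment at 0.05, and n was 3 per group. Errors after ± are standard errors of the log2 change, and CPM values are scaled by TMM-adjusted library size. Fold ratios and bounds of genes at or near 0 counts were scaled by summed gene counts without that adjustment. Low depth limits genes under a few counts, and their intervals cover counting error only.

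Named genes were protein-coding, called, at a mean level of 10 CPM or more in t0, DMSO or 1 µM, with 1 direction in all 3 same-numbered pairs: the 10 largest rises and falls, 5 per class and direction by the size of the difference from DMSO, up to 4 per list by p plus up to 2 called the other way, and a panel of 23. The members and lists were chosen with earlier results of these data known. On simulated data with 200 changed genes among 15419, 98.5% were placed in their true class. These genes had extended, cancelled or reversed rises or a rise with AZD5582 only. Each simulated step was of at least 2-fold, in genes above a set level at t0. Falls, partly cancelled and kept changes were not simulated. The real median DMSO change was smaller, 0.662 on the log2 scale for cancelled and 0.65 for reversed rises, so the share does not carry over to the real classes. Same-numbered libraries of t0 and 1 µM correlated at 0.221, -0.0665 and 0.264 in their deviations from the group means. Those of DMSO and 1 µM correlated at 0.277, 0.0876 and 0.237, and those of t0 and DMSO at 0.0499, 0.103 and 0.0703. The main fit did not treat the numbers as pairs, and only the rule for naming genes used them. Alternatives covered RLE scaling, filters, DESeq2 1.42.0, fewer libraries, a replicate block and a fold threshold.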

Additional observations from a re-analysis of the deposited data

How the results depend on the processing

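The net calls changed in number by less than 1.5 times under other scaling, filters, DESeq2, a fit of the t0, DMSO and 1 µM libraries alone (4951 higher, 5672 lower) and without each library in turn (5239 to 5715 higher, 5194 to 5626 lower). Asking for at least 2-fold left 3229 higher and 3352 lower. Asking for at least 2-fold in the called steps left 710 extended rises, 454 extended falls, 31 and 32 partly cancelled rises and falls, 115 and 55 cancelled, 105 and 15 reversed, 722 kept falls and 859 genes up with AZD5582 only, fewer by construction. Without each library in turn, reversed falls ran from 69 (without replicate 3 of t0) to 127 (without replicate 3 of DMSO), and DESeq2 gave 146. The replicate block gave 5685 higher and 5593 lower. Titles number the replicates alike in each group, and the labels do not say what the numbers stand for. Of 258 named genes called in the net change, 253 were called in all 15 settings and none changed sign, while 211 of 269 stayed in 1 class. Where a class moved, the cause was not tested.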

Other observations

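Further lists gave markers of cells that a bone marrow culture can hold. Of 9 B cell markers 6 rose and 2 fell, and among the rises Ebf1, a B lineage factor, had 0, 0.0463 and 0.107 CPM at t0, 0.124, 0.117 and 0.341 CPM with DMSO and 0.741, 0.874 and 0.682 CPM at 1 µM. The summed level of the list was 69.08 to 75.01 CPM at t0, 65.35 to 74.56 CPM with DMSO and 60.08 to 70.09 CPM at 1 µM, so the summed ranges of the 3 groups overlapped. Ebf1 and Siglech lie outside the rule for naming genes and were chosen after their values were seen. Of 12 plasmacytoid DC markers 5 rose and 5 fell. Tcf4, the factor that defines these cells, had 23.3, 24.8 and 23.3 CPM at t0, 21.4, 27.5 and 27.3 CPM with DMSO and 77.0, 61.1 and 60.6 CPM at 1 µM and rose by 1.48 ± 0.11 on the log2 scale, whereas Siglech, their surface lectin, had 217, 20 and 0 counts over the libraries of t0, DMSO and 1 µM.

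Of 10 eosinophil markers 1 rose and 5 fell, with a summed 441.3 to 655.8 CPM at t0, 220.9 to 292.4 CPM with DMSO and 66.17 to 102 CPM at 1 µM. At t0 and with DMSO most of this sum was Ear2, with means of 353, 209 and 32.6 CPM in the 3 groups. Prg2 and Epx, named after their values were seen, were cancelled falls. Their means were 27.4, 15.3 and 32.2 CPM and 7.93, 2.12 and 5.32 CPM. Of 14 stromal and endothelial markers 1 rose and 8 fell, with a summed 134.8 to 137.2 CPM at t0, 88.07 to 101.9 CPM with DMSO and 10.4 to 13.1 CPM at 1 µM. At t0 and with DMSO most of this sum was 1 gene, Vwf, with means of 101, 76.6 and 6.12 CPM in the 3 groups. Of 13 mast cell and basophil markers 2 rose and 3 fell, with a summed 50.46 to 68.77 CPM at t0, 98.23 to 152.9 CPM with DMSO and 141.9 to 210.7 CPM at 1 µM. With DMSO and at 1 µM, but not at t0, most of this was Kit, with means of 15, 100 and 128 CPM at t0, with DMSO and at 1 µM. Without Kit, a choice made after the values were seen, the list summed to 35.97 to 54.09 CPM at t0, 20.24 to 28.17 CPM with DMSO and 31.13 to 45.44 CPM at 1 µM. Of 7 T and NK cell markers 2 rose and 5 fell, of 6 erythroid and megakaryocyte markers 2 rose and none fell, of 9 stem and progenitor markers 4 rose and 3 fell, and of 13 type 1 conventional DC markers 4 rose and 6 fell.

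Of 22 p53 targets 9 rose and 9 fell, where 35% of all genes rose and 34% fell. Cdkn1a, which encodes the cell cycle inhibitor p21, had 369, 426 and 399.8 CPM at t0, 363, 422 and 382 CPM with DMSO and 959, 1071 and 870.1 CPM at 1 µM, so that t0 and DMSO overlapped and every 1 µM library lay above both, with a net change of 1.28 ± 0.11. Of 31 cytosolic ribosomal protein genes 14 rose and 3 fell, with a median of 0.209. Rps19 had 498, 497 and 463 CPM at t0, 642, 638 and 548 CPM with DMSO and 1128, 818 and 864 CPM at 1 µM, and replicate 1 of the 1 µM group, the library with the highest mitochondrial share, was its highest.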
